A study of Homo sapiens with 6 samples.

Results

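The genes described here were NFE2L2, which encodes the transcription factor NRF2, its inhibitor KEAP1, and 8 antioxidant genes that NRF2 is known to activate: NQO1, GCLC, GCLM, SRXN1, TXN, PRDX1, GSR and OSGIN1. They were chosen by name, and each of the 10 symbols matched a single row among the 58735 genes of the deposited count table. The cells were Ovcar8, an established human line of high-grade serous ovarian cancer. The line was grown in RPMI-1640 with 5% fetal bovine serum (FBS). One group had that serum and the other, labelled serum-starved, was starved of serum over the 48 h before RNA was taken. The serum-starved group is also called without serum below, although no FBS percentage was recorded for it. Each group had 3 RNA libraries. Whether each library stands for its own culture is not said in the labels. The p-values below therefore measure only the spread between these libraries, which may be technical. A single cell line was used.

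NRF2 is a bZIP transcription factor that controls much of the cell's defence against oxidants and electrophiles. In unstressed cells KEAP1, an adaptor of a CUL3 ubiquitin ligase, holds NRF2 in the cytoplasm and directs its degradation. Oxidants and electrophiles modify cysteines of KEAP1, NRF2 then accumulates in the nucleus, pairs with small MAF proteins and binds antioxidant response elements in its target genes. Most of this control acts on the NRF2 protein, which RNA sequencing does not measure. The targets make glutathione, recycle glutathione and thioredoxin, reduce peroxides and quinones, and supply NADPH.

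The libraries held 16379416 to 19558484 counts assigned to genes, and a count of 3 corresponded to between 0.132 and 0.204 CPM (counts scaled to the size of the library). KRT8, KRT18 and PAX8, markers of an ovarian carcinoma, were present (PAX8 at 60.9, 72.7 and 59.4 CPM with FBS and 81.9, 86.1 and 68.2 CPM without serum). EPCAM, CDH1 and WT1 were each under 5 CPM, KRT19 had at most 4 counts, and MUC16 had 0 counts in every library. Among 11 markers of fibroblasts, leukocytes and endothelium, COL1A1 was high, and the other 10 summed to between 1.98 and 3.83 CPM with FBS and between 3.57 and 7.54 CPM without serum. COL1A1 brought the sum of all 11 to 320.04 to 581 CPM with FBS and 767 to 835 CPM without serum, and its part in the results below was not tested. Of the other fibroblast markers, COL1A2 and DCN had 0 counts in every library and LUM had at most 3 counts in a library. The libraries differed in how counts followed the GC content and length of genes. In FBS replicate 1 genes of low GC content were high, in serum-starved replicate 1 they were low, and in serum-starved replicate 3 short genes were low. For genes in the lowest of 10 equal classes of GC content, the median log2 deviation from a gene's mean over all libraries was 0.79, 0.01 and 0.06 with FBS and -0.70, -0.28 and 0.29 without serum. Here and below, per-library values are given for replicates 1, 2 and 3 in turn. A second fit therefore used a per-library correction for transcript GC content and gene length. Its values are given wherever they change a call, and for some other genes. A gene given without a corrected value may still have moved in that fit.

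Without serum, GCLM, the regulatory subunit of the enzyme that limits glutathione synthesis, had the lowest fold change of the 10 genes. It was 2.7-fold lower, from 43.6 ± 11.6 CPM with FBS to 16.2 ± 4.20 CPM (SD, n = 3 per group). The catalytic subunit GCLC, NQO1, KEAP1, PRDX1 and NFE2L2 itself each overlapped between the groups, and GSR, the reductase that regenerates glutathione, was 1.44-fold lower without overlap. In RNA from whole cultures, fewer cells of a type and less RNA per cell cannot be told apart. Of the 10 genes, 0 passed an adjusted p of 0.05 in edgeR (quasi-likelihood F test, Benjamini-Hochberg over all 13772 genes tested), where 0.283% of all genes did. All 10 were above the low-count filter. At an unadjusted p under 0.05, GCLM was the 1 gene of the 10, against 10.4% of all genes, and in DESeq2 GCLM was the 1 called, against 1.16% of all genes. Of the 10 fold changes, 8 were below 0, against 51.5% of all genes, and their median log2 fold change was -0.34, against -0.02 over all genes. The groups did not overlap for 2 of the 10, GCLM and GSR, against 17.7% of all genes in either direction. Both were lower without serum, and 7.65% of all genes were lower without overlap. After the GC and length correction they did not overlap for 4 of the 10, with GCLM, GSR and OSGIN1 lower and TXN higher, against 22% of all genes in either direction. In the fit with the GC and length correction, GCLM fell and TXN, which encodes thioredoxin, rose, so that 2 of the 10 passed where 0.835% of all genes did.

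**Figure D1:**
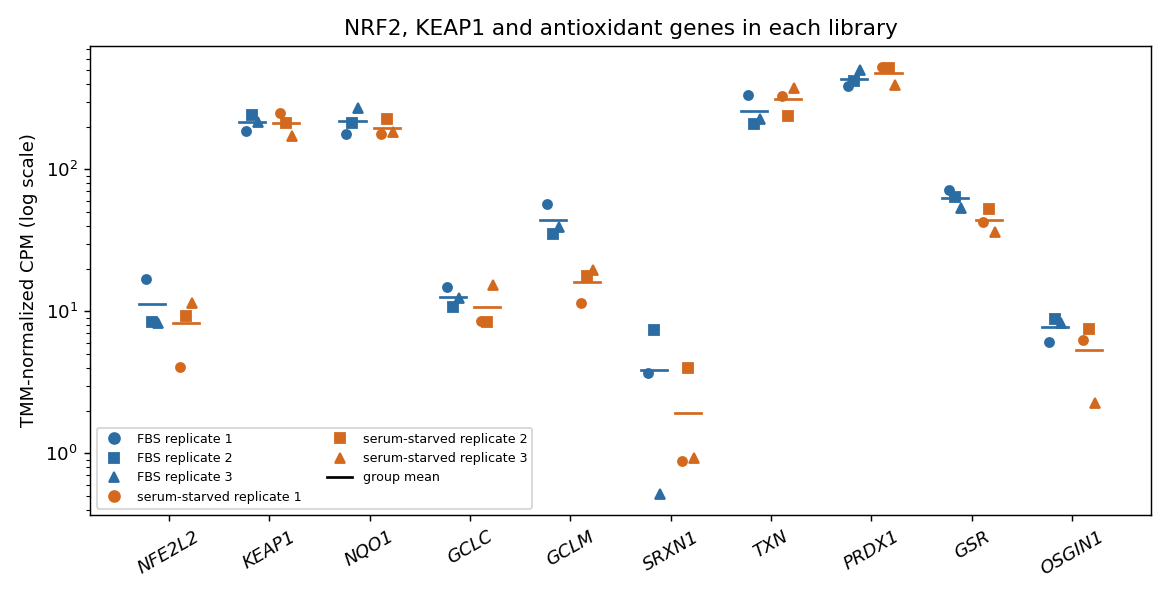
CPM of the 10 genes in each of the 6 libraries, on a log axis, with a line at each group mean. The 3 serum-starved libraries lie below the 3 with FBS for GCLM and GSR, the points of the other 8 genes overlap, and SRXN1 has the widest scatter.

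Coordinates are those of GRCh38. NFE2L2 (ENSG00000116044, chromosome 2, 177227595 to 177392697) was at 16.97, 8.40 and 8.32 CPM with FBS and at 4.08, 9.22 and 11.4 CPM without serum. The highest value belonged to FBS replicate 1, the lowest to serum-starved replicate 1, and the other 4 libraries lay between 8.32 and 11.4 CPM, in both groups. Its log2 fold change was -0.45 (SE 0.44, 95% interval -1.37 to 0.47, edgeR adjusted p = 0.778). NFE2L2 is in the third-lowest class of GC content, whose genes had median deviations of 0.32, -0.05 and 0.02 with FBS and -0.45, -0.04 and 0.34 without serum. With the GC and length correction NFE2L2 was at 13.96, 8.84 and 8.40 and 5.75, 9.36 and 9.07 CPM, and the groups still overlapped. The upstream end of the annotated gene overlaps AGPS on the opposite strand, and whether counting used strand is not given in the sources used here.

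KEAP1 (ENSG00000079999, chromosome 19, 10486120 to 10503741) was at 185, 243 and 215 CPM with FBS and at 249, 211 and 173 CPM without serum. The means were 214 ± 29.01 and 211 ± 37.9 CPM (SD, n = 3), and the log2 fold change was -0.02 (SE 0.29, 95% interval -0.64 to 0.59, edgeR adjusted p = 0.987). That interval leaves room for a change in either direction. Per length, the ratio of NFE2L2 to KEAP1 FPKM (the authors' second table, in which counts are scaled by gene length and library size) was 0.0577, 0.0218 and 0.0243 with FBS and 0.0103, 0.0275 and 0.0413 without serum, and its groups overlapped.

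Glutathione is made by glutamate-cysteine ligase, in which GCLC carries the active site and GCLM raises its affinity for glutamate and lowers feedback inhibition by glutathione. GCLM (ENSG00000023909, chromosome 1, 93885205 to 93909456) was at 56.8, 34.9 and 39.2 CPM with FBS and at 11.4, 17.6 and 19.4 CPM without serum. Every serum-starved library was below every library with FBS, and the gap between the groups ran from 19.4 to 34.9 CPM. The log2 fold change was -1.43 (SE 0.32, 95% interval -2.11 to -0.75, edgeR adjusted p = 0.0799), at an unadjusted p of 0.000360. Of all genes tested, 1.68% had a fold change as low or lower. GCLM also belongs to a class of low GC content, the second-lowest, whose median deviations were 0.50, -0.03 and 0.02 with FBS and -0.61, -0.15 and 0.37 without serum. With the GC and length correction, GCLM was at 41.9, 36.0 and 38.9 CPM with FBS and 17.5, 19.0 and 15.5 CPM without serum. The spread inside each group became narrower, the log2 fold change was -1.17 (SE 0.21), and GCLM passed over all genes (edgeR adjusted p = 0.0150). Across 26 alternative settings GCLM was lower in each, and it passed in 10 of them. Its adjusted p ranged from 0.0038 in DESeq2 to 0.774 in edgeR without FBS replicate 1. Without serum-starved replicate 3 GCLM passed (edgeR adjusted p = 0.00713), in a fit that called 1.81% of all genes. Without the correction, leaving out any of the 5 remaining libraries gave no call. With the correction GCLM passed when FBS replicate 3 (0.586% of all genes), serum-starved replicate 1 (0.74%), serum-starved replicate 2 (0.428%) or serum-starved replicate 3 (0.656%) was left out. It also passed without a low-count filter (0.541% of all genes), with GC content alone corrected (0.559%) and with the full correction and a replicate block (1.05%).

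GCLC (ENSG00000001084, chromosome 6, 53497341 to 53616970) overlapped between the groups. It was at 14.9, 10.7 and 12.3 CPM with FBS and at 8.496, 8.40 and 15.4 CPM without serum, and the highest of all 6 libraries was serum-starved replicate 3. Its log2 fold change was -0.23 (SE 0.37, 95% interval -1.01 to 0.55, edgeR adjusted p = 0.880). Per length, GCLM RNA was more abundant than GCLC RNA in all 6 libraries. The ratio of GCLM to GCLC FPKM was 6.09, 5.21 and 5.06 with FBS and 2.14, 3.35 and 2.02 without serum, with means of 5.45 ± 0.553 and 2.50 ± 0.734 (SD, n = 3). The groups did not overlap. A two-sided exact permutation test of the log2 ratio gave p = 0.1, the smallest that 3 libraries against 3 can give, so the design cannot take this ratio past 0.05. The ratio was 1 of 3 formed between genes of the system, with NFE2L2 to KEAP1 above and TXN to TXNRD1 below. With Benjamini-Hochberg adjustment over the 3 the permutation p is 0.15.

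**Figure D2:**
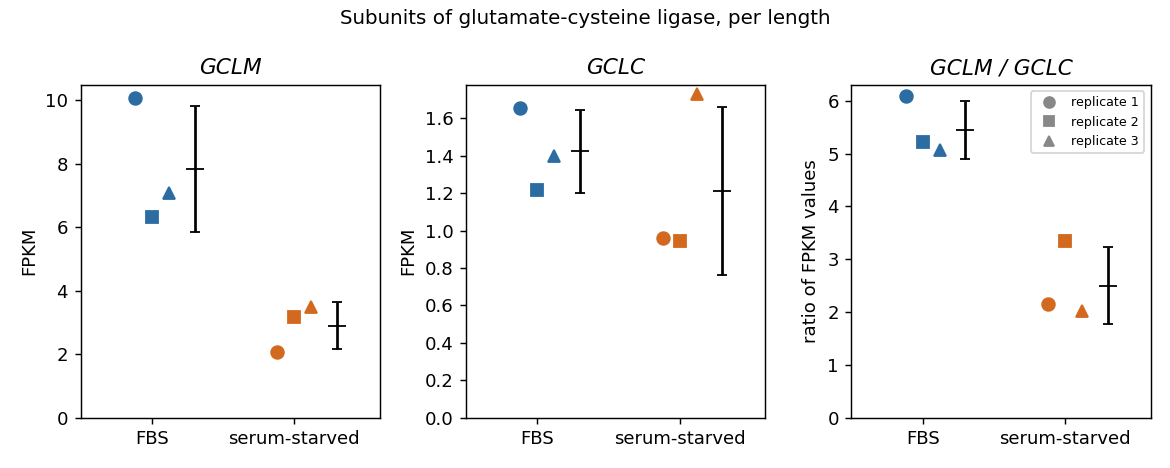
FPKM of GCLM and GCLC and their ratio in each library, with mean and SD at the side. GCLM and the ratio are lower in all 3 serum-starved libraries, at a ratio of 2.02 to 3.35 against 5.06 to 6.09 with FBS, while GCLC overlaps.

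The sequence NRF2 is known to bind was searched for in the promoters of the 10 genes. RefSeq promoter windows of GRCh38.p14, 250 bases before to 50 after a start site, were given for 8 of the 10 genes, with more than 1 start site for NFE2L2 and KEAP1. The core of the antioxidant response element, TGACNNNGC, was searched on both strands. It overlaps the AP-1 element TGACTCA, which can form its first bases. GCLM and KEAP1 held the core, 2 of the 8 genes, against 16.1% of all 27305 genes with a window, and 25 of the 82 other pathway genes with a window held it. The windows of both are shown with each match in capitals, since they carry the same 9 bases. GCLM lies on the minus strand at chr1:93909381-93909680 and this KEAP1 start on the minus strand at chr19:10502722-10503021, and both are written 5′ to 3′ along the gene.
GCLM: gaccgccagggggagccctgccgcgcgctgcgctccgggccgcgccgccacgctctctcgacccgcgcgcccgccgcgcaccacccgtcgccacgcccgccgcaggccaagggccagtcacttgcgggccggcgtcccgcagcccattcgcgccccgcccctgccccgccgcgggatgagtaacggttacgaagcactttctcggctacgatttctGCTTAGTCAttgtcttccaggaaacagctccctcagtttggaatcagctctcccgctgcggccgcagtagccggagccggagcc
KEAP1: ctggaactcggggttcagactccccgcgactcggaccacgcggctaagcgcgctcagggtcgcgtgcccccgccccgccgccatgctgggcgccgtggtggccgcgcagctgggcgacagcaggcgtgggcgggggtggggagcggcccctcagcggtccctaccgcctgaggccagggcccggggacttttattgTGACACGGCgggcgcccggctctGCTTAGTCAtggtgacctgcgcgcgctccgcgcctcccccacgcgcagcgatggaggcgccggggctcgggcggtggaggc
The match in GCLM, GCTTAGTCA, reads TGACTAAGC on the other strand and lies from 34 to 26 bases before the start site. KEAP1 has the same GCTTAGTCA from 31 to 23 bases before the start site shown, and upstream of it TGACACGGC from 54 to 46 bases before. The window of the other KEAP1 start site, at chr19:10503307-10503606, held no match. The full 9 bases TGACTAAGC, singled out after these windows were seen, occurred on either strand in the windows of 35 of the 27305 genes (0.128%). None of the 3 matches contains TGACTCA. The windows of NFE2L2, NQO1, GCLC, SRXN1, TXN and OSGIN1 did not hold these letters, which says nothing of sites farther away. GCLM, with this match, was 2.7-fold lower without serum, and KEAP1, with the same 9 bases, had means of 214 ± 29.01 and 211 ± 37.9 CPM (SD, n = 3). A match is a description of the sequence, and binding was not measured.

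GSR (ENSG00000104687, chromosome 8, 30678061 to 30727999) encodes glutathione reductase, which uses NADPH to return oxidized glutathione to its reduced form. It was at 71.6, 63.8 and 53.4 CPM with FBS and at 42.3, 52.9 and 36.3 CPM without serum. The groups were separate by a small margin, with serum-starved replicate 2 just below FBS replicate 3. The means were 62.9 ± 9.17 and 43.8 ± 8.41 CPM (SD, n = 3), the log2 fold change was -0.52 (SE 0.28, 95% interval -1.12 to 0.08, edgeR adjusted p = 0.543), and GSR passed in none of the 26 alternative settings.

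In the thioredoxin branch, TXN is the small redox protein that reduces peroxiredoxins and is itself reduced by the NADPH-dependent reductase TXNRD1. TXN (ENSG00000136810, chromosome 9, 110243811 to 110256640) was at 332, 209.9 and 224 CPM with FBS and at 327, 238 and 374 CPM without serum, with FBS replicate 1 among the high libraries and overlapping groups. The log2 fold change was 0.29 (SE 0.31, 95% interval -0.36 to 0.95, edgeR adjusted p = 0.798). TXN stands in the lowest of the 10 classes of GC content and also of gene length, with 70 of the tested genes in both. For the shortest class the median deviations were 0.21, 0.19 and 0.13 with FBS and 0.17, 0.09 and -0.53 without serum. With the GC and length correction TXN was at 153, 181 and 208 CPM with FBS and at 575, 288 and 478 CPM without serum, and the groups no longer overlapped. It rose in that fit, with a log2 fold change of 1.31 (SE 0.25, edgeR adjusted p = 0.0231). Correcting GC content alone gave 0.97 (edgeR adjusted p = 0.0968), and length alone gave 0.66 (0.506). TXN passed in 4 of the 26 alternatives, each with both corrections, and in the corrected fits that left out a library it passed when serum-starved replicate 2 or 3 was left out and did not in the other 4. So the call for TXN exists only where both properties are corrected, and TXN lies at the low end of both. TXN also has processed pseudogenes, and the way reads shared with them were counted is not given in the sources used here.

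**Figure D3:**
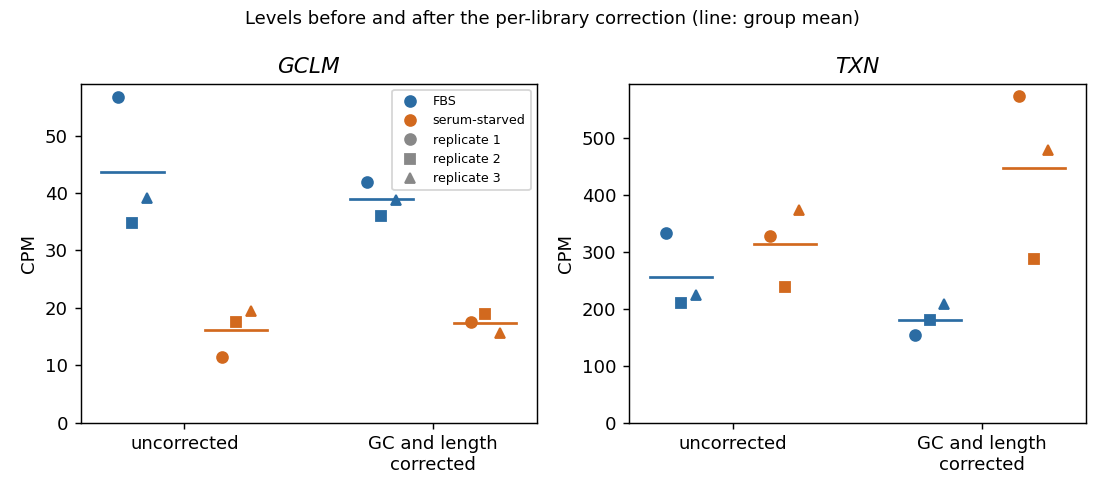
CPM of GCLM and TXN in each library before and after the per-library correction for GC content and length, with a line at each group mean. The 3 libraries of a group draw together for GCLM, at 36.0 to 41.9 CPM with FBS and 15.5 to 19.0 CPM without serum, while for TXN the correction moves the libraries in opposite directions and separates the groups.

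TXNRD1 was at 180.1, 128 and 115 CPM with FBS and 60.2, 115 and 148 CPM without serum, with overlap (log2 fold change -0.38, edgeR adjusted p = 0.748). The ratio of TXN to TXNRD1 FPKM was 10.8, 9.64 and 11.5 with FBS and 31.9, 12.1 and 14.8 without serum. The groups did not overlap, and the exact permutation p was 0.1 (two-sided, the smallest possible), 0.15 after adjustment over the 3 ratios. The ratio was highest in serum-starved replicate 1. In the corrected fit log2 fold changes were 1.31 for TXN and -0.44 for TXNRD1 (edgeR adjusted p = 0.328 for TXNRD1), against 0.29 and -0.38 uncorrected.

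PRDX1 (ENSG00000117450, chromosome 1, 45511036 to 45523047), a peroxiredoxin that reduces hydrogen peroxide with electrons from thioredoxin, was the most abundant of the 10 per length. It was at 384, 416 and 499 CPM with FBS and at 523, 516 and 393 CPM without serum. Serum-starved replicates 1 and 2 were the highest of all, and serum-starved replicate 3 lay at the level of FBS replicates 1 and 2. The log2 fold change was 0.14 (SE 0.30, 95% interval -0.49 to 0.77, edgeR adjusted p = 0.912). PRDX1 overlaps MMACHC on the opposite strand and has a processed pseudogene.

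SRXN1 (ENSG00000271303, chromosome 20, 646615 to 653370) encodes sulfiredoxin, which repairs over-oxidized peroxiredoxins. Its raw counts were 72, 125 and 8 with FBS and 13, 73 and 21 without serum. In CPM that was 3.66, 7.45 and 0.520 with FBS and 0.884, 4.01 and 0.925 without serum. Each group held both low and high libraries, with a 14.3-fold range among the libraries with FBS and a 4.53-fold range without serum. Of the 5158 genes with a mean of 1 to 10 CPM, 11 (0.213%), SRXN1 included, had a coefficient of variation at least as large in both groups. The log2 fold change was -0.998 (SE 0.74, 95% interval -2.57 to 0.57, edgeR adjusted p = 0.699), and that interval is the widest of the 10. The log2 fold change was -0.12 when FBS replicate 2 was left out and -2.10 when serum-starved replicate 2 was, and SRXN1 passed in neither case. Another protein-coding gene is annotated over SRXN1 on the same strand, so reads shared with it are uncertain.

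NQO1 (ENSG00000181019, chromosome 16, 69706996 to 69726951) encodes the quinone reductase that is the most used readout of NRF2 activity. It was at 178, 212 and 269 CPM with FBS and at 178, 227 and 183 CPM without serum. Serum-starved replicates 2 and 3 lay inside the range of the libraries with FBS, and serum-starved replicate 1 equalled FBS replicate 1 to the nearest whole CPM. The log2 fold change was -0.17 (SE 0.29, 95% interval -0.78 to 0.45, edgeR adjusted p = 0.891). OSGIN1 (ENSG00000140961, chromosome 16, 83948282 to 83966332) encodes a growth inhibitor induced by oxidative stress. It was at 6.10, 8.82 and 8.32 CPM with FBS and at 6.25, 7.46 and 2.25 CPM without serum, where serum-starved replicate 3 was far below the other 5 libraries. Its log2 fold change was -0.55 (SE 0.46, 95% interval -1.51 to 0.42, edgeR adjusted p = 0.736), and without that library the log2 fold change was -0.17. With the GC and length correction OSGIN1 was at 7.25, 8.11 and 8.12 CPM with FBS and at 4.91, 6.77 and 2.95 CPM without serum, so that the groups no longer overlapped, and it did not pass (log2 fold change -0.68, edgeR adjusted p = 0.357).

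**Figure D4:**
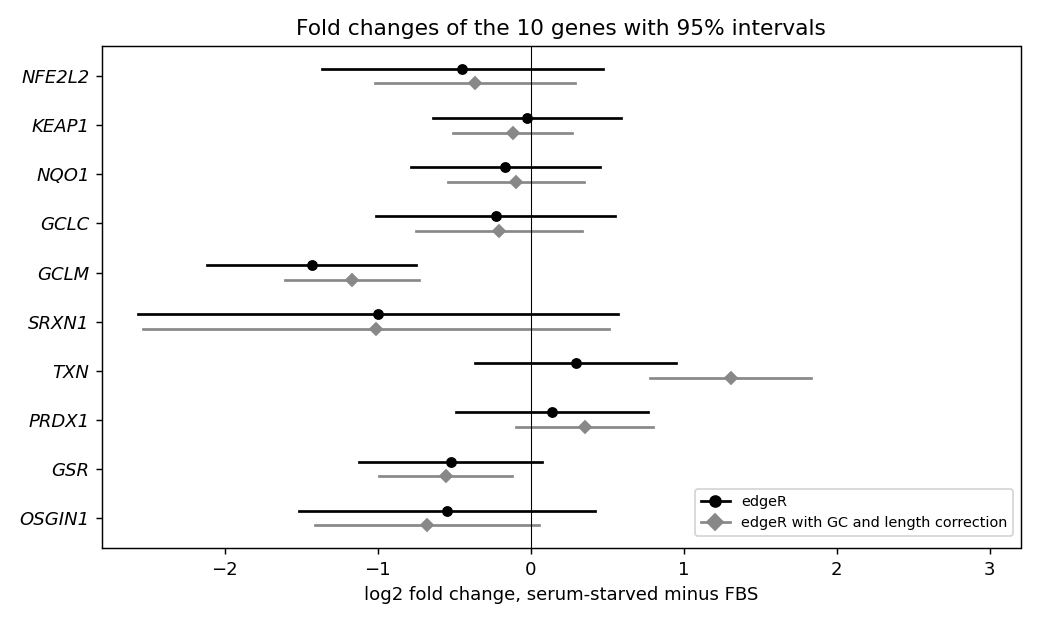
Log2 fold changes (serum-starved minus FBS) of the 10 genes with 95% intervals, without correction (black) and with the GC and length correction (grey). Without correction the interval of GCLM alone excludes 0, from -2.11 to -0.75, and with it those of GCLM, GSR and TXN do.

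Per length, the 10 genes stood in the same order by mean FPKM in both groups. PRDX1 at 278 ± 39.9 FPKM with FBS and 306 ± 47.1 without serum and TXN at 218 ± 54.3 and 267 ± 59.4 led, and this pair did not differ beyond its spread (SD, n = 3). Both were above the level of at least 98.4% of all genes tested with FBS. NQO1 at 66.0 ± 14.3 and KEAP1 at 55.6 ± 8.14 FPKM followed with FBS, and these neighbours did not differ beyond their spread. GSR stood at 16.3 ± 2.24 and GCLM at 7.83 ± 1.99 FPKM with FBS, each apart from its neighbours by more than the sum of their SDs. OSGIN1 (2.19 ± 0.432), NFE2L2 (1.83 ± 0.784), GCLC (1.42 ± 0.222) and SRXN1 (1.40 ± 1.27 FPKM) were lowest with FBS, and neighbours in this order did not differ beyond their spread. Without serum GCLM, at 2.903 ± 0.747 FPKM, came within the summed SDs of OSGIN1 at 1.4996 ± 0.769 FPKM. No library was at the extreme for most of the genes. FBS replicate 1 was the highest for 3 of the 10, and serum-starved replicates 1 and 3 were each the lowest for 3.

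Beyond the 10 genes, 101 others of the NRF2 system and its redox neighbourhood were listed in 8 groups by role. Of these 100 matched a single row, 89 passed the low-count filter, and none passed the edgeR test, against 0.283% of all genes. At an unadjusted p under 0.05 there were 7, 5 higher and 2 lower (10.4% of all genes). DESeq2 called 1 of the 89, SESN2, against 1.16% of all genes. The groups did not overlap for 8 of the 89, 6 higher and 2 lower, against 17.7% of all genes. The median log2 fold change was 0.05 over the 89, against -0.02 over all genes tested and -0.34 over the 10.

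Among 14 tested regulators and partners, 7 were above 0 and 7 below, with a median of -0.03. NFE2L1, a related factor that controls proteasome genes, was at 132, 146 and 128 CPM with FBS and 224, 195 and 174 CPM without serum, without overlap (log2 fold change 0.55, edgeR adjusted p = 0.519). CUL3, the ligase scaffold that KEAP1 serves, had log2 fold change -0.47, edgeR adjusted p = 0.715, and MAFG, a small MAF partner of NRF2, had log2 fold change -0.09, edgeR adjusted p = 0.946. BACH1, which represses the same elements, and SQSTM1, the autophagy receptor p62 that can sequester KEAP1, overlapped between groups (log2 fold change 0.04, edgeR adjusted p = 0.985 for BACH1 and 0.09, 0.948 for SQSTM1).

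Of 20 tested genes that make, carry or use glutathione, 9 were above 0 and 11 below, with a median of -0.06. The cystine transporter SLC7A11 was at 4.67, 3.69 and 5.07 CPM with FBS and 4.28, 9.88 and 11.8 CPM without serum, where serum-starved replicates 2 and 3 were high and replicate 1 lay within the FBS range (log2 fold change 0.95, edgeR adjusted p = 0.463, and 0.35 on the log2(FPKM + 1) scale). CHAC1, which degrades glutathione, was at 5.13, 11.9 and 8.06 CPM with FBS and 9.52, 45.2 and 16.997 CPM without serum, with the highest value in serum-starved replicate 2 (log2 fold change 1.52, edgeR adjusted p = 0.288). Without that library the log2 fold change of CHAC1 was 0.66 (edgeR adjusted p = 0.724). CHAC1 passed in 2 of 26 alternatives, without a low-count filter (adjusted p = 0.0244) and in the corrected fit without serum-starved replicate 1 (log2 fold change 2.09, adjusted p = 0.00506). GPX1, a selenium-dependent glutathione peroxidase, was at 1260.2, 1531 and 1292 CPM with FBS and 966, 898 and 226 CPM without serum, without overlap (log2 fold change -0.97, edgeR adjusted p = 0.437). Its lowest value was in serum-starved replicate 3. GPX1 has a GC content of 63.1% and a length of 1430 bases. In that library the median deviation was -0.47 in the highest class of GC content and -0.53 in the class of shortest genes. The fit with the GC and length correction included GPX1, and none of the 20 glutathione genes passed in it. How far these trends bear on the GPX1 value was not tested. GSS, the enzyme that completes glutathione, had log2 fold change 0.09, edgeR adjusted p = 0.945.

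Of 15 tested thioredoxin and peroxiredoxin genes, 6 were above 0 and 9 below. SESN2, a sestrin induced by stress that restrains mTORC1, was at 41.6, 42.1 and 40.8 CPM with FBS and 77.3, 140.1 and 81.6 CPM without serum. The 3 libraries with FBS were between 40.8 and 42.1 CPM and all serum-starved libraries were higher (log2 fold change 1.26, edgeR adjusted p = 0.111). In the corrected fit SESN2 rose (log2 fold change 1.21, edgeR adjusted p = 0.0391), but it did not pass with the correction and a replicate block (0.0589), with GC content alone corrected (0.0637) or in 5 of the 6 corrected fits that left out a library (0.0547 to 0.203). The exception was the corrected fit without serum-starved replicate 1 (0.00481). Uncorrected, SESN2 passed without serum-starved replicate 1 (0.0346, where 0.454% of all genes passed) and without serum-starved replicate 3 (0.00614), and not without any of the 4 others. It passed in 6 of 26 alternatives, and its adjusted p ranged from 0.00481 to 0.730. PRDX2, PRDX3 and PRDX6, peroxiredoxins of the cytosol and mitochondria, had log2 fold changes of -0.18, -0.10 and -0.16, TXNRD2, the mitochondrial reductase, had -0.44, and TXNIP, which binds thioredoxin, had 0.29. The edgeR adjusted p-values of these 5 were 0.745 or higher.

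NADPH feeds both reductases, and 6 of its 7 tested supply genes were above 0 and 1 below, where 51.5% of all genes were below. Their median log2 fold change was 0.38, the highest of the lists. PGD, of the pentose phosphate pathway, was at 199, 264 and 322 CPM with FBS and 453, 404 and 285 CPM without serum (log2 fold change 0.54, edgeR adjusted p = 0.573), and its groups overlapped. IDH1, the cytosolic isocitrate dehydrogenase, had log2 fold change 0.82, edgeR adjusted p = 0.477, ME1, the malic enzyme, 0.14 (0.933), and TALDO1, a transaldolase, -0.28 (0.803). With the GC and length correction ME1 had 0.69 (edgeR adjusted p = 0.196). Of 16 tested quinone and carbonyl genes 11 were above 0, with a median of 0.30. ABHD4, a lipid hydrolase, was the highest of them at 23.5, 33.7 and 45.3 CPM with FBS and 73.6, 80.9 and 53.6 CPM without serum, without overlap (log2 fold change 1.02, edgeR adjusted p = 0.256). It passed in 2 of 26 alternatives, without serum-starved replicate 3 (edgeR adjusted p = 0.0259) and in the corrected fit without FBS replicate 3 (0.0480), and its adjusted p ranged up to 0.997. AKR1B1, an aldose reductase, was the lowest at a mean of at least 5 CPM (log2 fold change -0.51, edgeR adjusted p = 0.651).

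Of 8 tested haem and iron genes, 4 were above 0 and 4 below. HMOX1, the inducible haem oxygenase, was at 23.3, 21.7 and 18.5 CPM with FBS and 26.0, 28.4 and 11.5 CPM without serum (log2 fold change 0.05, edgeR adjusted p = 0.976). FTL and FTH1, the ferritin chains, spread widely among serum-starved libraries, at 4254, 2079 and 1159 CPM for FTL and 1360.0, 1659.6 and 595 CPM for FTH1, against 2685, 2029 and 2984 and 746, 920.5 and 1052 CPM with FBS. FTL has a length of 878 bases, and the shortest class of genes had median deviations of 0.17, 0.09 and -0.53 in the serum-starved libraries. Its log2 fold change was -0.04, and 0.0029 with the GC and length correction. Whether length bears on the FTL spread was not tested. BLVRA, a biliverdin reductase, was at 15.2, 13.9 and 12.3 CPM with FBS and 20.8, 18.6 and 16.2 CPM without serum, without overlap (log2 fold change 0.43, edgeR adjusted p = 0.702), and HMOX2, the constitutive haem oxygenase, had log2 fold change -0.27, edgeR adjusted p = 0.849. Of 5 tested exporters 3 were above 0. ABCC1, which exports glutathione conjugates, was at 82.0, 111 and 125 CPM with FBS and 157, 140.4 and 162 CPM without serum, without overlap (log2 fold change 0.53, edgeR adjusted p = 0.540), and ABCC4 had -0.01 (0.994). Of 4 tested genes against superoxide and hydrogen peroxide, SOD1, the cytosolic superoxide dismutase, had log2 fold change -0.02, edgeR adjusted p = 0.987, catalase (CAT) 0.24 (0.887) and CCS, the copper chaperone of SOD1, -0.48 (0.702). The symbol SOD2 stood on more than 1 row and was given no value.

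**Figure D5:**
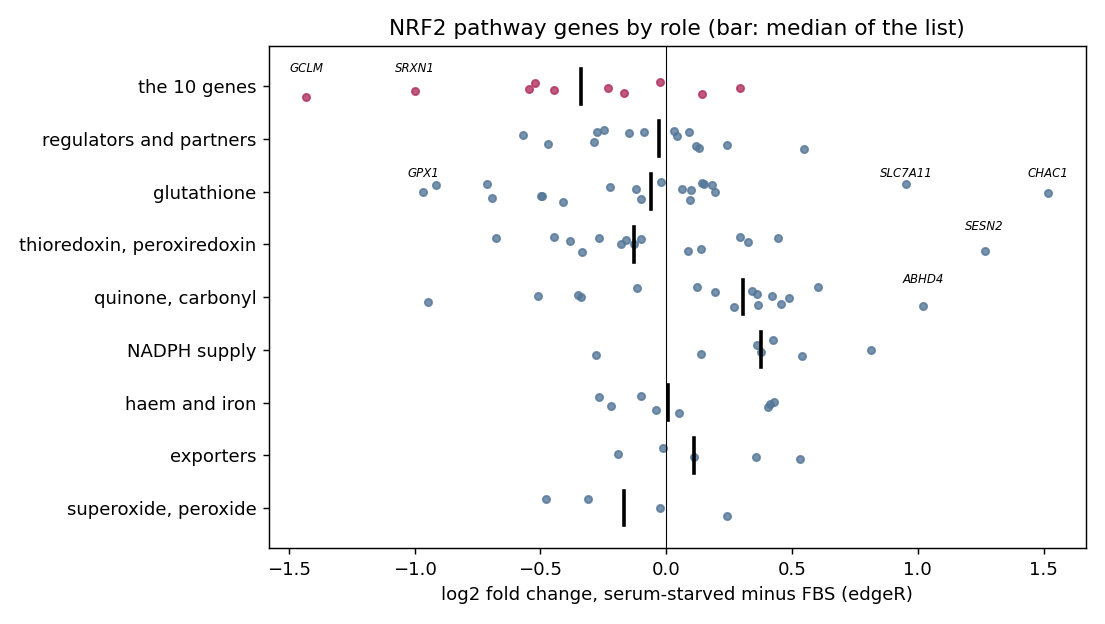
Log2 fold changes (serum-starved minus FBS, edgeR) of each tested gene, in 9 rows: the 10 genes and the 8 role groups, with a bar at each median. The 10 genes have a median of -0.34, the NADPH supply genes 0.38 and the quinone and carbonyl genes 0.30, and none of the points passed the test over all genes.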

How the data were processed

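Per the labels' protocols, RNA was extracted with Trizol and a column with DNase, and NEBNext Ultra II libraries were sequenced on a NovaSeq. STAR 2.6.1, DESeq2 and GRCh38 are named in the submitters' processing notes, without their roles. No source used here gives the counting tool. The authors deposited raw counts and FPKM per gene. The deposited FPKM values equalled counts scaled by gene length, DESeq2 size factor and the geometric mean of library totals (median ratio 1 above 20 counts).

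Genes were kept with edgeR's filterByExpr (minimum count 10, minimum total 15), TMM-scaled and compared with edgeR 4.0.16 (glmQLFit robust, glmQLFTest, R 4.3.3), with Benjamini-Hochberg adjustment at 0.05. CPM values are TMM-normalized, SEs are the fold change divided by the root of F, and intervals are at 95%. Fold changes from FPKM, an alternative, are on the log2(FPKM + pseudocount) scale with a pseudocount of 1 or 0.1 and limma 3.58.1. DESeq2 1.42.0 and limma-voom were further alternatives. The correction used splines with 5 degrees of freedom of each library's log2 deviations on GENCODE 29 transcript GC content and on gene length, entered as offsets. In simulated data for this comparison (13388 genes), edgeR called 17 of the 100 genes given a 2-fold change and 90 of the 100 given a 4-fold change, and 4 of its 111 calls were false. DESeq2 called 26 and 95, and 24 of its 145 calls were false. The changed genes were drawn from those with a mean above 5 CPM. Recovery for genes below that level, SRXN1 among them, was not simulated.

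The genes, lists and tests were chosen with earlier results of these data known. Named genes were the 10, 22 listed pathway genes, any other listed gene that passed, and the highest and lowest fold change of each list at a mean of at least 5 CPM. Of these, 1 listed gene is not reported here. The CPM of 3 counts reflects counting error alone, because PCR copies were not told apart by molecular identifiers.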

Additional observations from a re-analysis of the deposited data

How the results depend on the processing

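Of all genes, 39 passed in the reported edgeR fit. The number was 25 with total counts alone, 127 without a low-count filter, 160 in DESeq2, 22 with log2(FPKM + 1), 19 with log2(FPKM + 0.1), 0 with log2(FPKM + 1) and no filter (limma, 1534 at an unadjusted p under 0.05), 115 with the GC and length correction and 145 with that correction and a replicate block. It was 77 with GC correction alone, and 4 to 257 when single libraries were left out (24, 35, 84, 106, 61 and 93 with the correction, in the order FBS replicates 1 to 3 and serum-starved replicates 1 to 3). Uncorrected, the lowest was without FBS replicate 1 and the highest without serum-starved replicate 3. Of the 10 genes, 0 passed in the reported fit, 1 (GCLM) without a filter, in DESeq2 and with GC correction alone, and 2 (GCLM and TXN) with the GC and length correction, with or without the block. With a single library left out, 0 to 1 passed, or 0 to 2 with the correction. Of the other pathway genes, 0 passed in the reported fit, 2 without a filter (CHAC1 and SESN2), 1 in DESeq2 and 1 with the GC and length correction (SESN2 in both), and 0 to 2 when single libraries were left out, with or without the correction. The corrections of GC content or length alone and the corrected fits without a library were chosen after seeing the data.

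Among the 260 alternative values of the 10 genes, 5 had the other sign, for KEAP1 and NQO1, and among 858 of the other 33 named genes 102 did, for 15 genes. None of these 107 values passed, and neither did the reported value of the same gene. The log2 fold changes of other sign were these. They were KEAP1 0.054, BACH1 -0.011, FTL 0.16, PRDX3 0.017, PRDX6 0.0057 and SOD1 0.19 with length correction alone. With total counts alone they were HMOX1 -0.0055 and ABCC4 0.021. For limma-voom, they were HMOX1 -0.078 and BACH1 -0.10. They were HMOX1 -0.031 and BACH1 -0.012 with log2(FPKM + 1). With log2(FPKM + 0.1) they were HMOX1 -0.045 and BACH1 -0.10. For log2(FPKM + 1) and no filter, they were HMOX1 -0.031 and BACH1 -0.012. They were HMOX1 -0.042 and BACH1 -0.13 with a replicate block. With GC correction alone they were HMOX1 -0.13, CUL3 0.12, SQSTM1 -0.061, GSS -0.0047, PRDX3 0.18 and ABCC4 0.14. For the GC and length correction, they were SQSTM1 -0.21, GSS -0.074, FTL 0.0029, PRDX3 0.28, PRDX6 0.14, SOD1 0.17 and ABCC4 0.028. They were SQSTM1 -0.21, GSS -0.085, PRDX3 0.28, PRDX6 0.13, SOD1 0.17 and ABCC4 0.015 with the full correction and a replicate block. In the corrected fit, omission of FBS replicate 3 gave NQO1 0.10, HMOX1 -0.11, SQSTM1 -0.27, GSS -0.018, FTL 0.13, PRDX3 0.37, PRDX6 0.29, SOD1 0.075 and ABCC4 0.062. Omitting FBS replicate 2 there gave HMOX1 -0.075, CUL3 0.13, SQSTM1 -0.30, GSS -0.038, PRDX3 0.31, PRDX6 0.20, SOD1 0.24 and ABCC4 0.073. Leaving out serum-starved replicate 2 there gave HMOX1 -0.17, SQSTM1 -0.089, GSS -0.054, FTL 0.15, PRDX3 0.23, PRDX6 0.17 and SOD1 0.23. Omitting FBS replicate 1 there gave MAFG 0.10, SQSTM1 -0.042, GSS -0.18, FTL 0.045, PRDX3 0.14 and SOD1 0.19. Leaving out serum-starved replicate 3 there gave CUL3 0.052, SQSTM1 -0.13, FTL 0.14, PRDX3 0.16, PRDX6 0.29, SOD1 0.17, CAT -0.11 and ABCC4 0.14. Omitting serum-starved replicate 1 there gave SQSTM1 -0.41, GSS -0.24, PRDX3 0.41, SOD1 0.071 and ABCC4 0.068. Uncorrected and with single libraries left out, the log2 fold change ran from -0.14 to 0.10 for KEAP1, -0.30 to 0.013 for NQO1, -0.18 to 0.36 for HMOX1, -0.34 to 0.36 for ME1, -0.22 to 0.11 for MAFG, -0.61 to 0.35 for BACH1, -0.27 to 0.28 for SQSTM1, -0.088 to 0.27 for GSS, -0.65 to 0.30 for FTL, -0.47 to 0.084 for PRDX2, -0.46 to 0.21 for PRDX3, -0.14 to 0.054 for SOD1, -0.37 to 0.63 for CAT, -0.79 to 0.032 for HMOX2 and -0.16 to 0.23 for ABCC4. Without turning sign, the corrected fits moved ME1 to 0.84 when FBS replicate 3 was omitted, and omitting serum-starved replicate 2 moved ME1 to 0.83 and TXNRD2 to -1.09. The cause was not tested. Same-numbered libraries of the groups did not deviate together: their deviations across genes correlated at -0.26, 0.10 and -0.08, so the numbers were not taken as pairs. With a replicate block 43 of all genes, 0 of the 10 and 0 of the other pathway genes passed. Recovery of simulated 2-fold changes was low at this depth and spread, so a gene that did not pass may still have changed.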

Other observations

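Several genes known as NRF2 targets in other tissues were barely seen in these libraries. GSTM1, ALDH3A1 and the iron exporter SLC40A1 had 0 counts in all 6, which allows up to 3 counts in a library. AKR1B10 had 4 counts, all in serum-starved replicate 2. GPX2, an intestinal glutathione peroxidase, had 5, 1 and 0 counts with FBS and 0, 1 and 11 without serum. AKR1C1, often among the most NRF2-responsive genes of lung cancer lines, was at 1.12, 1.13 and 2.53 CPM with FBS and 0.680, 1.26 and 0.528 CPM without serum. These were named after their values were seen, and no difference between the groups is read from them.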
